A study of Sus scrofa with 60 samples.

Results

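The cytochromes P450 that convert cholesterol to bile acids were followed in the liver of 60 pigs at 4 ontogenetic stages. The genes sought were CYP7A1, CYP7B1, CYP8B1, CYP27A1 and CYP39A1, and every probe set of the Affymetrix Porcine Genome array annotated with a single one of these symbols was taken. A probe set is the group of short oligonucleotides that reads 1 transcript. This gave 6 of the 23999 probe sets for transcripts, representing 4 of the 5 genes. CYP7A1, CYP8B1 and CYP39A1 had 1 probe set each. CYP27A1 had 3, which are called CYP27A1-A, CYP27A1-B and CYP27A1-C here in the order of their mean signal over all arrays. CYP7B1 had 0 and was not analysed here.

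All animals were German Landrace offspring of gilts fed the adequate protein (AP) diet in pregnancy. There were 15 fetuses at 94 days post conceptionem (94 dpc), 15 newborns at 1 day post natum (1 dpn), 14 piglets at 28 dpn and 16 pigs at 188 dpn, each with its own array. By the study's methods the fetuses came from a separate experiment and were taken by Caesarean section from anaesthetised sows, the newborns were killed by injection, and both older stages were slaughtered after electronarcosis and a night without feed. The animals of a stage were sibs from 8 litters. At 94 dpc and 1 dpn the lightest and heaviest of a litter were used, and at both older stages animals of intermediate growth. Piglets kept beyond the newborn stage were cross-fostered, and males among them were castrated in the first week. Stage, feeding state, choice by weight and mode of sampling cannot be told apart. Litter, sex and weight are not in the labels, so that the p-values treat sibs as independent.

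Bile acids are made in hepatocytes by 2 routes. In the classical route CYP7A1 adds the first hydroxyl group to the sterol ring, a rate-limiting step that is switched off when bile acids return to the liver, and CYP8B1 directs the product towards cholic acid. In the alternative route the mitochondrial CYP27A1 hydroxylates the side chain first, and CYP7B1 then acts on the ring of such oxysterols. CYP39A1 hydroxylates the ring of oxysterols too. CYP27A1 also oxidises the side chain in the classical route and is present in macrophages. Pig bile is known for hyocholic rather than cholic acid.

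Expression levels are log2(intensity + 16), so that an intensity of 0 stands at 4, and the value after ± is the standard deviation (SD) among the animals of a stage. Changes are later minus earlier stage on that scale with their standard error (SE). A change was called when its adjusted p-value, by limma with Benjamini-Hochberg adjustment over all probe sets of the comparison, was below 0.05. Background was read from the 17 Tag controls of the array, whose highest stage mean was 5.86 in fetuses, 6.29 in newborns, 5.73 at 28 dpn and 5.84 at 188 dpn. Of the hepatocyte markers 8 of 8 lay above that background at every stage. The same held for 7 of 7 macrophage, 7 of 7 endothelial, 6 of 6 erythroid and 5 of 5 neutrophil markers and for 3 of 5 cholangiocyte markers, with SOX9 and CFTR at background throughout, so that the arrays read liver of mixed cell content. In bulk liver, fewer cells of a type and less RNA per cell cannot be told apart.

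CYP7A1 was near background before and just after birth and rose between 1 and 28 dpn, with a wide spread between animals. In the fetuses the lowest, median and highest levels were 4.23, 5.72 and 7.06. In the newborns they were 4.16, 4.86 and 9.36. At 28 dpn they were 4.30, 7.69 and 10.78, and at 188 dpn 5.18, 7.49 and 10.20. Most fetuses and newborns therefore sat low with single newborns reaching far up, the older pigs covered almost the whole range, and the ranges of all stages overlapped. The level exceeded the highest Tag control of the animal's own array in 4 of 15 fetuses, 3 of 15 newborns, 12 of 14 piglets at 28 dpn and 13 of 16 pigs at 188 dpn.

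From 1 to 28 dpn (period II) the mean of CYP7A1 went from 5.75 ± 1.49 (n = 15) to 7.91 ± 1.63 (n = 14), a rise of 2.16 ± 0.54 (limma adjusted p = 0.00078, 95% confidence interval 1.06 to 3.26). CYP7A1 entered this comparison through the older stage, since 10 of 14 piglets but only 2 of 15 newborns exceeded their array median. It likewise entered the comparisons with the fetuses, of which 0 of 15 exceeded the array median, only through the pigs of 28 or 188 dpn. The comparison of 1 with 188 dpn also included it only through the older stage, in which 12 of 16 pigs exceeded their array median. The means of newborns and fetuses lay below the Tag background, so that the size of rises from these stages is not measured. Among the 12976 probe sets tested in period II 28.5% rose. The level of 13 of the 14 piglets lay above the median newborn, but only 3 lay above the highest newborn. From 94 dpc to 1 dpn (period I) CYP7A1 did not reach the level required for testing. Without that filter its change was 0.19, with an interval of -0.72 to 1.10 (limma adjusted p = 0.78). From 28 to 188 dpn (period III) the change was -0.10 ± 0.55, and its interval of -1.23 to 1.03 is too wide to tell a steady level from a moderate change (limma adjusted p = 0.90). In ascending order the stages ran 94 dpc, 1 dpn, 188 dpn and 28 dpn, and among neighbours in this order a difference was called for 1 and 188 dpn (2.06 ± 0.52, limma adjusted p = 0.00073, with 28.8% of probe sets rising) and for no other pair. Against the fetuses CYP7A1 was higher by 2.35 ± 0.47 at 28 dpn (limma adjusted p = 4.1e-05, with 28.8% of probe sets rising) and by 2.25 ± 0.46 at 188 dpn (limma adjusted p = 4.6e-05, with 27.9% rising). Any difference among the 4 stages was called as well (limma F test, adjusted p = 3.6e-06), as for 93.2% of the probe sets tested. Of these, 69.5% had a larger F statistic than CYP7A1.

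The 3'/5' signal ratio of the actin control, a measure of RNA integrity in which a larger value means relatively less signal from the 5' end, moved over the same period. On the log2 scale it was 2.29 ± 0.34 in fetuses, 1.76 ± 0.31 in newborns, 3.54 ± 0.46 at 28 dpn and 4.01 ± 0.45 at 188 dpn, and newborns and 28-day piglets did not overlap. With this ratio as a covariate the rise of CYP7A1 in period II was 3.59 ± 1.39 and was no longer called (limma adjusted p = 0.059). The differences from 1 to 188 dpn (1.62, limma adjusted p = 0.53) and from 94 dpc to 188 dpn (2.51, limma adjusted p = 0.062) were not called either, while that from 94 dpc to 28 dpn remained called. Because the ratio nearly separates the stages, its part in the change and that of age cannot be told apart.

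The scatter of CYP7A1 between animals of 1 stage was among the widest of the tested probe sets. Its SD was larger than that of 99.4% of the tested probe sets in fetuses and of 99.8% in newborns, at 28 dpn and at 188 dpn. Most fetuses and newborns and some older animals lay close to background, where the log scale is wide. The SD of CYP8B1, which stayed at background, exceeded that of 95.1%, 90.1%, 91.2% and 94.5% at these stages. The rank of CYP7A1 in fetuses and newborns is thus no measure of biological spread. As deposited intensities, the 28-day piglets ranged from 3.74 to 1738.5 with a median of 192, and the pigs of 188 dpn from 20.2 to 1161 with a median of 164. The lowest animal of either stage did not exceed the highest Tag control of its array. At 28 dpn the lowest piglet was also the array least correlated with its stage, and the next lowest piglet stood at 6.46 on the log2 scale. A change in this spread between consecutive stages was called for 0 of the 18 comparisons over all members and periods (permutation test on absolute deviations from the stage median, smallest adjusted p = 0.44, with 1 comparison, CYP27A1-A in period I, at an unadjusted p below 0.05 and 2 after quantile normalization).

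CYP8B1 was not measured above background at any stage. Its mean was 5.65 ± 0.75 in fetuses (n = 15), 5.73 ± 0.74 in newborns (n = 15), 5.14 ± 0.64 at 28 dpn (n = 14) and 5.55 ± 0.74 at 188 dpn (n = 16). The highest single animals reached 6.70, 6.78, 5.97 and 6.57 at these stages, and 1, 2, 0 and 3 animals exceeded the highest Tag control of their array. The probe set never passed the filter, and when tested without it no period was called (limma adjusted p = 0.84, 0.053 and 0.28). Since the signal lay at background, no statement on the direction of CYP8B1 is made.

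**Figure D1:**
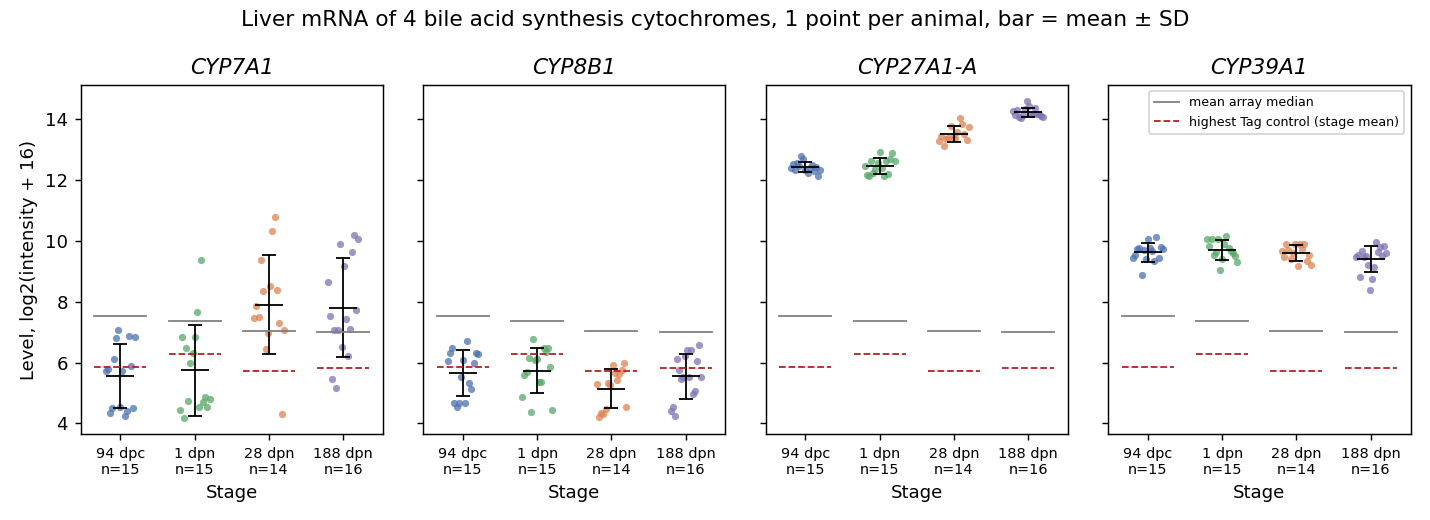
Level of CYP7A1, CYP8B1, CYP27A1-A and CYP39A1 as log2(intensity + 16) against stage, 1 point per animal, with mean ± SD as black bars, the mean array median in grey and the highest stage mean of the Tag controls as a dashed line. CYP7A1 spans from 4.30 to 10.78 at 28 dpn, CYP8B1 stays around the dashed line, CYP27A1-A climbs to 14.23 at 188 dpn without overlap after 1 dpn, and CYP39A1 stays between means of 9.40 and 9.70.

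CYP27A1, read by CYP27A1-A, was clearly detected in every animal and rose stepwise after birth with little scatter. The lowest, median and highest levels were 12.16, 12.40 and 12.79 in fetuses, 12.14, 12.47 and 12.94 in newborns, 13.12, 13.45 and 14.05 at 28 dpn, and 14.06, 14.18 and 14.61 at 188 dpn. Fetuses and newborns overlapped, every 28-day piglet was above every newborn, and every pig of 188 dpn was above every 28-day piglet.

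The change of this probe set in period I was 0.04 ± 0.09 (limma adjusted p = 0.69, interval -0.13 to 0.22). In period II it rose by 1.05 ± 0.10, or 2.07-fold (limma adjusted p = 1.7e-10), and in period III by 0.71 ± 0.08, or 1.63-fold (limma adjusted p = 4e-08). Rises were called for 15.5% of probe sets in period III. Stages without overlap and with the later one higher were found for 4.59% of the tested probe sets in period II and for 0.485% in period III. From 94 dpc to 188 dpn the rise was 1.80 ± 0.07, or 3.48-fold (limma adjusted p = 2.2e-22). Over this span 27.9% of the tested probe sets rose, and in 10.3% the oldest pigs lay above all fetuses. Across the 4 stages its moderated F statistic of 234 ranked 204 of 13844 probe sets, of which 93.2% differed among stages (limma adjusted p = 2.4e-31). At 188 dpn its SD of 0.15 was larger than that of only 1.60% of the tested probe sets.

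The other probe sets of the same gene followed other courses. For CYP27A1-B the lowest, median and highest levels were 9.84, 10.43 and 10.70 in fetuses, 10.09, 10.54 and 10.99 in newborns, 9.84, 10.55 and 11.27 at 28 dpn, and 10.17, 11.32 and 11.60 at 188 dpn. The first 3 stages overlapped almost fully, and 10 of the 16 oldest pigs lay above all 28-day piglets. Its changes were 0.15 ± 0.10 in period I (limma adjusted p = 0.19), -0.04 ± 0.14 in period II (limma adjusted p = 0.83) and 0.69 ± 0.15 in period III (limma adjusted p = 0.00046). With the actin ratio as a covariate the period II value became 1.09 ± 0.29 and was called (limma adjusted p = 0.0068).

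For CYP27A1-C the lowest, median and highest levels were 7.76, 8.20 and 8.54 in fetuses, 7.86, 8.62 and 9.23 in newborns, 8.05, 8.90 and 9.75 at 28 dpn, and 9.42, 9.79 and 10.33 at 188 dpn. Neighbouring stages overlapped, while the oldest pigs were separate from the fetuses and the newborns. It rose by 0.36 ± 0.13 in period I (limma adjusted p = 0.014), as 23.9% of all tested probe sets did, and by 0.96 ± 0.13 in period III (limma adjusted p = 6.2e-07), and its period II value of 0.28 ± 0.16 was not called (limma adjusted p = 0.13). The period I call was lost with the actin ratio as a covariate (0.14). In period II the value was called after quantile normalization (0.43), after centring each array on its median (0.59) and with the actin covariate (1.24).

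The disagreement within the gene was itself tested on the difference between probe sets in each animal, in 12 comparisons adjusted together. In period II CYP27A1-A rose by 1.09 ± 0.11 more than CYP27A1-B and by 0.77 ± 0.12 more than CYP27A1-C (permutation test, adjusted p = 6e-05 for both, resting on the smallest p that 100000 resamples allow). CYP27A1-B stayed behind CYP27A1-C in that period by a difference of -0.31 ± 0.09 (permutation test, adjusted p = 0.0076). In period I CYP27A1-A changed less than CYP27A1-C by a difference of -0.32 ± 0.09 (permutation test, adjusted p = 0.0079). In period III the 3 changes were 0.71, 0.69 and 0.96, and none of the differences was called. At the main setting the rise in period III was thus called for all 3 probe sets and that in period II for CYP27A1-A alone. Which parts of the transcript the probe sets read is not given in the sources used here, and the step in the actin ratio between 1 and 28 dpn falls in the same period as the disagreement, so that age and RNA integrity cannot be told apart there.

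**Figure D2:**
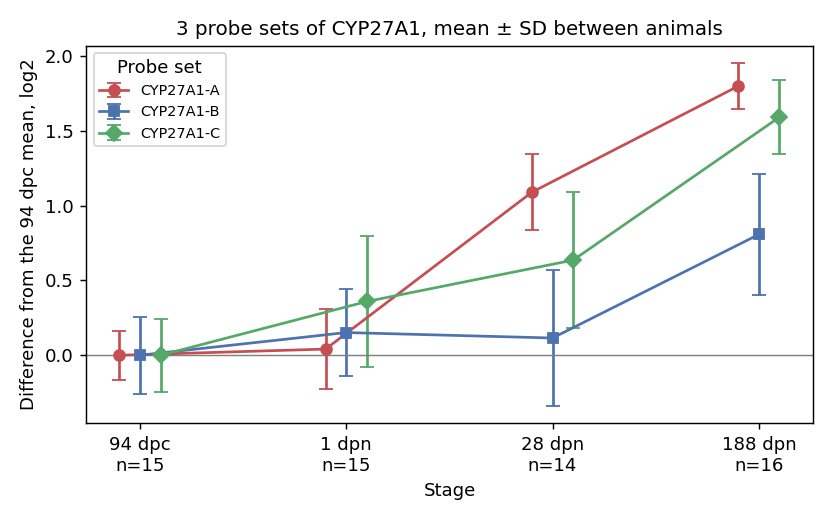
Difference of each CYP27A1 probe set from its own mean at 94 dpc (log2) against stage, as mean ± SD between animals. CYP27A1-A gains 1.05 from 1 to 28 dpn while CYP27A1-B changes by -0.04 and CYP27A1-C by 0.28, and all 3 are at their highest at 188 dpn.

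Within a stage the 3 probe sets ranked the animals alike to varying degrees. Among newborns the correlations were r = 0.78, 0.81 and 0.75 for CYP27A1-A with -B, -A with -C and -B with -C (rho = 0.76, 0.76 and 0.75, permutation p = 0.001, 0.00036 and 0.0018, adjusted p = 0.011, 0.0053 and 0.013, n = 15), and they were 0.69, 0.77 and 0.67 without the 2 animals farthest from the median. In the same order of pairs r was 0.55, 0.34 and 0.48 in fetuses (permutation test, adjusted p = 0.15, 0.39 and 0.21). At 28 dpn the pairs had r = 0.54, 0.62 and 0.92, of which the last was called (rho = 0.88, permutation p = 1e-05, which is the smallest possible here, adjusted p = 0.00044, n = 14, r = 0.87 without 2 animals) and the others were not (permutation test, adjusted p = 0.16 and 0.083). At 188 dpn r was 0.01, 0.57 and 0.17 (permutation test, adjusted p = 0.98, 0.095 and 0.73, n = 16), and the first of these was 0.47 after quantile normalization. The difference between stages was not tested. All 44 relations computed within stages were adjusted together.

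CYP39A1, which hydroxylates the ring of oxysterols, was well above background in every animal, and its change was not called in any period. The lowest, median and highest values were 8.87, 9.72 and 10.12 in fetuses, 9.05, 9.68 and 10.17 in newborns, 9.19, 9.63 and 9.91 at 28 dpn, and 8.38, 9.51 and 9.98 at 188 dpn. The ranges of all stages overlapped, with only the lower end extending further down in the oldest pigs. Its changes were 0.07 ± 0.11 in period I, -0.10 ± 0.11 in period II and -0.21 ± 0.13 in period III, none of them called (limma adjusted p = 0.59, 0.44 and 0.20). The intervals of -0.16 to 0.31, -0.32 to 0.13 and -0.47 to 0.05 lay within 0.5 of 0 on the log2 scale. Any difference among the 4 stages was not called either (limma F test, adjusted p = 0.080).

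The extremes of CYP39A1, 1 and 188 dpn, differed by -0.31 ± 0.14 (limma adjusted p = 0.041), in a comparison in which 43.2% of probe sets fell. This call depended on the setting. It was lost after quantile normalization (-0.15), without the filter (limma adjusted p = 0.064) and when the least correlated array of every stage was left out (-0.21), and the sign turned after median centring (0.067) and with the actin covariate (0.010).

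CYP7A1 and CYP27A1 were compared directly, as the entry enzymes of the classical and alternative routes. In period II the change of CYP7A1 exceeded that of CYP27A1-A by 1.12 ± 0.56, a difference that was not called (permutation test, adjusted p = 0.086). The newborn mean of CYP7A1 lay below the Tag background, so that this test cannot compare the sizes of the 2 changes. In period III the difference was -0.81 ± 0.58 (permutation test, adjusted p = 0.21). Within stages CYP7A1 and CYP27A1-A had r = 0.36, 0.25, 0.35 and 0.01 from 94 dpc to 188 dpn (rho = 0.26, 0.31, 0.20 and 0.08, permutation p = 0.19, 0.38, 0.21 and 0.96, adjusted p = 0.36, 0.56, 0.39 and 0.98). Without the 2 farthest animals r was -0.06, 0.35, -0.0004 and 0.11, so that no relation between animals was resolved.

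CYP27A1 was also set against CD163, a scavenger receptor of macrophages, since macrophages express CYP27A1 as well. CD163 had means of 10.06 ± 0.30 in fetuses, 11.34 ± 0.43 in newborns, 10.86 ± 0.37 at 28 dpn and 10.07 ± 0.39 at 188 dpn. Animals with more CD163 had less CYP27A1-A signal at 94 dpc (r = -0.74, rho = -0.78, permutation p = 0.0017 and 0.0011, adjusted p = 0.013 for both, n = 15) and at 188 dpn (r = -0.80, rho = -0.77, permutation p = 0.00024 and 0.00086, adjusted p = 0.0053 and 0.013, n = 16). Without the 2 animals farthest from the median of CD163, r was -0.73 and -0.63. Neither 1 dpn (r = -0.09, rho = -0.10, permutation p = 0.76, adjusted p = 0.88) nor 28 dpn (r = -0.46, rho = -0.49, permutation p = 0.10, adjusted p = 0.25) gave a called relation, and the difference between stages was not tested.

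The relation was recomputed under other scalings and with other probe sets and markers. After quantile normalization r was -0.72 at 94 dpc and -0.80 at 188 dpn, and after median centring -0.64 and -0.62. With the other CYP27A1 probe sets CD163 had r = -0.11 and -0.24 at 94 dpc, and -0.15 and -0.45 at 188 dpn, none of them called after adjustment. Against the summed intensity of the 7 measured macrophage markers the r of CYP27A1-A was 0.26 at 94 dpc and -0.04 at 188 dpn (permutation test, adjusted p = 0.53 and 0.97). Against the summed hepatocyte markers it was 0.69 at 94 dpc (rho = 0.69, permutation p = 0.0044, adjusted p = 0.028) and 0.47 without the 2 farthest animals. At 188 dpn it was 0.58 (rho = 0.65, permutation p = 0.017, adjusted p = 0.083).

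Blood cell markers marked the fetal livers, since 6 of 6 erythroid and 5 of 5 neutrophil markers fell in period I, in which CYP27A1-A was not called. In period II 5 of 5 neutrophil markers fell again, with 2 falls after quantile normalization. Of 4 erythroid markers tested there 2 rose and 1 fell. The summed macrophage signal and CYP27A1 did not move together throughout. The sum ranged from 12517 to 17622 in fetuses, from 16880 to 28556 in newborns, from 34402 to 59865 at 28 dpn and from 24553 to 41380 at 188 dpn. In period II, when CYP27A1-A rose, 4 of 7 macrophage markers rose and 1 fell. The 1 that fell was CD163, the marker used for the correlation above, whose mean went from 11.34 to 10.86. CD163 thus did not follow the course of most of its list in that period. In period III, when all CYP27A1 probe sets rose, 0 rose and 6 fell. Of the 8 hepatocyte markers 1 rose and 5 fell in period II, and 6 rose and 0 fell in period III. These counts depended on the scaling. After quantile normalization 2 rose and 3 fell in period II, and in period III 1 rose and 1 fell, with a median change of -0.003 in place of 0.31. With the actin covariate 3 rose in period III. The part of cell composition in the CYP27A1 changes was not tested.

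**Figure D3:**
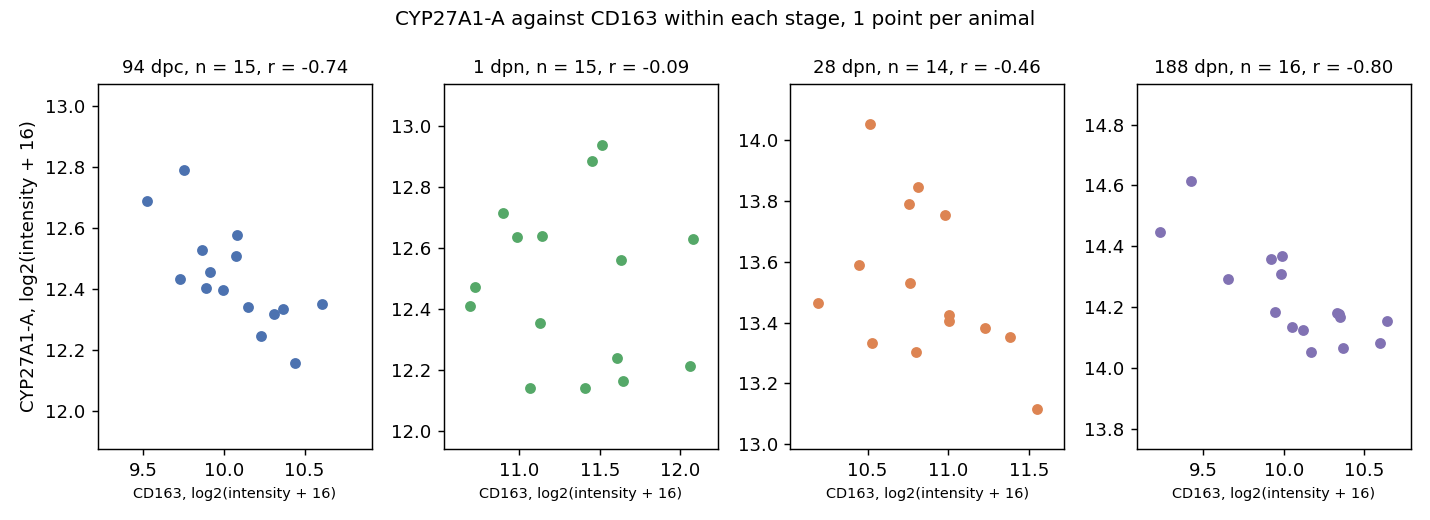
Level of CYP27A1-A against that of CD163 within each stage, both as log2(intensity + 16), 1 point per animal, with panels spanning equal ranges. The points run downwards at 94 dpc (r = -0.74) and 188 dpn (r = -0.80) and form no line at 1 dpn (r = -0.09).

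The neighbourhood of the cytochromes was described by gene lists, with 1 probe set per gene. Of all genes tested 29.8% rose and 35.6% fell in period I, 32.2% and 35.7% in period II, and 17.5% and 28.3% in period III. The median change of all genes was -0.06, -0.03 and -0.06 in the 3 periods. Centring arrays on their medians, which fell from 7.54 at 94 dpc to 6.99 at 188 dpn, moved these medians to 0.11, 0.28 and 0.0008. The share of rises among the called genes then went from 45.6% to 61.6% in period I, from 47.4% to 72.2% in period II and from 38.3% to 48.6% in period III. Small changes of single genes are to be read relative to that shift. The actin covariate weighed most on period II, in which 15 of the 33 calls among the list genes remained with it, against 25 of 30 in period I and 18 of 21 in period III. Over all 5335 genes tested in period II, 1716 rises and 1905 falls became 624 and 685 with the covariate. Calls lost to it there are thus not particular to the list genes.

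Of the 4 measured electron donors of the cytochromes, 2 rose and 0 fell in period I, with a median change of 0.76. In period II 1 rose and in period III 2 rose, and again 0 fell. POR, the reductase that supplies microsomal cytochromes such as CYP7A1, rose from 9.88 ± 0.37 to 11.28 ± 0.25, by 1.40 ± 0.12 (limma adjusted p = 3.9e-12). FDX1, the ferredoxin that supplies mitochondrial cytochromes such as CYP27A1, rose from 11.77 ± 0.18 to 13.08 ± 0.20, by 1.31 ± 0.08 (limma adjusted p = 1.1e-15). Newborns and fetuses did not overlap for either gene, as for 4.46% of all probe sets tested with the newborns higher. In periods II and III FDX1 gained 0.31 and 0.40, the former being 0.10 and not called after quantile normalization and not called with the actin covariate either (0.34). FDXR, which reduces the ferredoxin, rose in period III alone by 0.55 ± 0.13 (limma adjusted p = 0.00084), but also in period I after quantile normalization (0.38) or median centring (0.37).

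The other enzymes of bile acid synthesis were represented by 8 of 17 genes. Of these 7 belong to the shortening of the side chain in peroxisomes, and 1, CH25H, hydroxylates cholesterol and was tested in period III only (0.15, not called). In period I 4 of 7 tested rose and 3 fell (median 0.43), in period II 3 rose and 3 fell (median 0.09), and in period III 3 of 8 rose and 0 fell (median 0.18). AMACR, the racemase that prepares the side chain for oxidation, rose by 0.80 ± 0.12 in period I and by 1.12 ± 0.12 in period II, where newborns and piglets did not overlap (limma adjusted p = 5.8e-07 and 2.3e-09). ACAA1, a peroxisomal thiolase, rose by 0.60 and 0.33, and the transporter ABCD3 rose by 0.66 in period I. SCP2, which completes side-chain cleavage, went the other way at first, by -0.59 in period I and -0.34 in period II, and rose by 0.51 in period III. HSD17B4 changed by -0.44 in period I. ACOT8 changed by 0.43, -0.73 and 0.36, and ACOX2 by -0.26, 0.38 and 0.36, with its second probe set opposite in period II. The period II calls of SCP2 and ABCD3 (-0.39) and the period I call of ACOX2 were lost after median centring, and the period II call of ACOX2 after quantile normalization. With the actin covariate the calls of ACOT8 were lost in all periods (limma adjusted p = 0.13, 0.31 and 0.051), as were those of ACOX2 in periods I and II and of ACAA1 and SCP2 in period II, and the period II value of ABCD3 turned to 0.33, which was not called.

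The genes listed under transport of bile acids and bile lipids moved in both directions. SLC10A1, which takes bile acids up from the blood, rose in each period, from 12.73 ± 0.37 at 94 dpc to 13.64 ± 0.41, 14.27 ± 0.33 and 14.67 ± 0.29, by 0.91, 0.63 and 0.40 (limma adjusted p = 9.5e-07, 0.00016 and 0.0042). The last step was 0.16 and not called after quantile normalization. ABCB11, the pump that exports bile acids into the canaliculus, was at 9.80 ± 0.32 and 9.48 ± 0.57 around birth and fell by 1.68 ± 0.20 on the log2 scale to 7.80 ± 0.58 at 28 dpn (limma adjusted p = 2e-08), in the period in which CYP7A1 rose. ABCC2, a canalicular exporter of conjugates, rose by 0.81 in period I and changed by -1.06 ± 0.12 in period II without overlap (limma adjusted p = 5.9e-09). SLCO2B1 changed by -0.48 and then by 1.05 without overlap, EPHX1 by -0.54, 1.25 and 0.84, and the sterol exporter ABCG8 by 0.96 and -0.32, of which the first change of EPHX1 and the second of ABCG8 were lost after median centring. Of the 8 genes tested from this list 3 rose and 3 fell in period I, the same numbers held in period II, and 2 rose and 0 fell in period III. The rises of period II were those of SLC10A1, SLCO2B1 and EPHX1. Whether each listed gene carries bile acids in pig liver was not tested. With the actin covariate the period II values of ABCB11 (-1.22, limma adjusted p = 0.091) and ABCG8 (-0.73, limma adjusted p = 0.073) were not called.

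Among the regulators, HNF4A and NR1H3 rose in period II, as CYP7A1 did. HNF4A, which drives CYP7A1 and CYP8B1, rose by 0.79 ± 0.10 (limma adjusted p = 7.4e-08), from 12.19 ± 0.27 to 12.98 ± 0.27. The oxysterol receptor NR1H3 rose by 0.85 ± 0.08 (limma adjusted p = 2.3e-10), from 11.07 ± 0.24 to 11.92 ± 0.15. Both were without overlap in period II and were not called in periods I and III. NR5A2, which binds the CYP7A1 promoter, went the opposite way, by -0.65 ± 0.12 in period II and -0.30 in period III, the latter lost under both other scalings. The coactivator PPARGC1A changed by -0.98 ± 0.19 in period II and rose by 0.60 in period III. With the actin covariate the calls of HNF4A and NR1H3 in period II remained, while those of NR5A2 (-0.29) and PPARGC1A (-0.68) in period II and of NR5A2 in period III were lost.

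The xenobiotic receptor NR1I2 and the fatty acid receptor PPARA were highest in the newborns. NR1I2 rose by 1.04 ± 0.12 and then changed by -1.56 ± 0.10 without overlap, a pattern shown by 6.83% of the tested probe sets in period II. PPARA had means of 5.14 at 94 dpc and 5.62 at 28 dpn, both below the Tag background, so that its called rise in period I and fall in period II have no measured size, and the fall was not called with the actin covariate. NR2F2 changed by -0.84 in period I, NR2F1 by 0.88 in period II without overlap and by -0.26 in period III, CEBPB by 0.83 in period I and 0.90 in period III, and NCOR1 by 0.33 in period II and -0.34 in period III. The period III change of NR2F1 was lost under both other scalings, and the period II change of NCOR1 with the actin covariate. Of 13 regulators tested 3 rose and 3 fell in period I, 5 rose and 5 fell in period II, and of 12 tested in period III 2 rose and 3 fell. The bile acid receptor NR1H4, its target NR0B2 and the receptor FGFR4, which together carry the feedback on CYP7A1, were not measured under these symbols and are not analysed here, and neither were HSD3B7, AKR1D1, SLC27A5 and BAAT.

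Genes that supply cholesterol, the substrate, moved in both directions in every period. In period I 5 of 14 genes rose and 4 fell, in period II 6 of 15 rose and 4 fell, and in period III 5 of 15 rose and 4 fell. INSIG1, a brake on cholesterol synthesis, changed by -1.67 ± 0.28 in period I and its relative INSIG2 by 1.48 ± 0.14 without overlap. SQLE, an enzyme of cholesterol synthesis, changed by -1.52 ± 0.29 in the same period. In period III the first pair changed by 0.93 and -0.74. NPC2, which carries cholesterol out of lysosomes, rose by 1.20 ± 0.10 in period II and by 0.65 ± 0.07 in period III, both without overlap as for CYP27A1-A, after a change of -0.67 in period I against which another of its probe sets moved. LIPA, the lysosomal cholesteryl ester hydrolase, rose by 0.85 in period I and 0.39 in period II, the latter lost after quantile normalization and with the actin covariate. SREBF2 rose by 1.39 ± 0.13 in period II with 1 other probe set opposite. ABCA1, which exports cholesterol to lipoproteins, changed by -1.31 ± 0.14 in period II without overlap and by -0.71 in period III. CES1 rose by 0.65 and 0.44 in these periods, the former lost with the actin covariate (0.002) and the latter after quantile normalization.

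**Figure D4:**
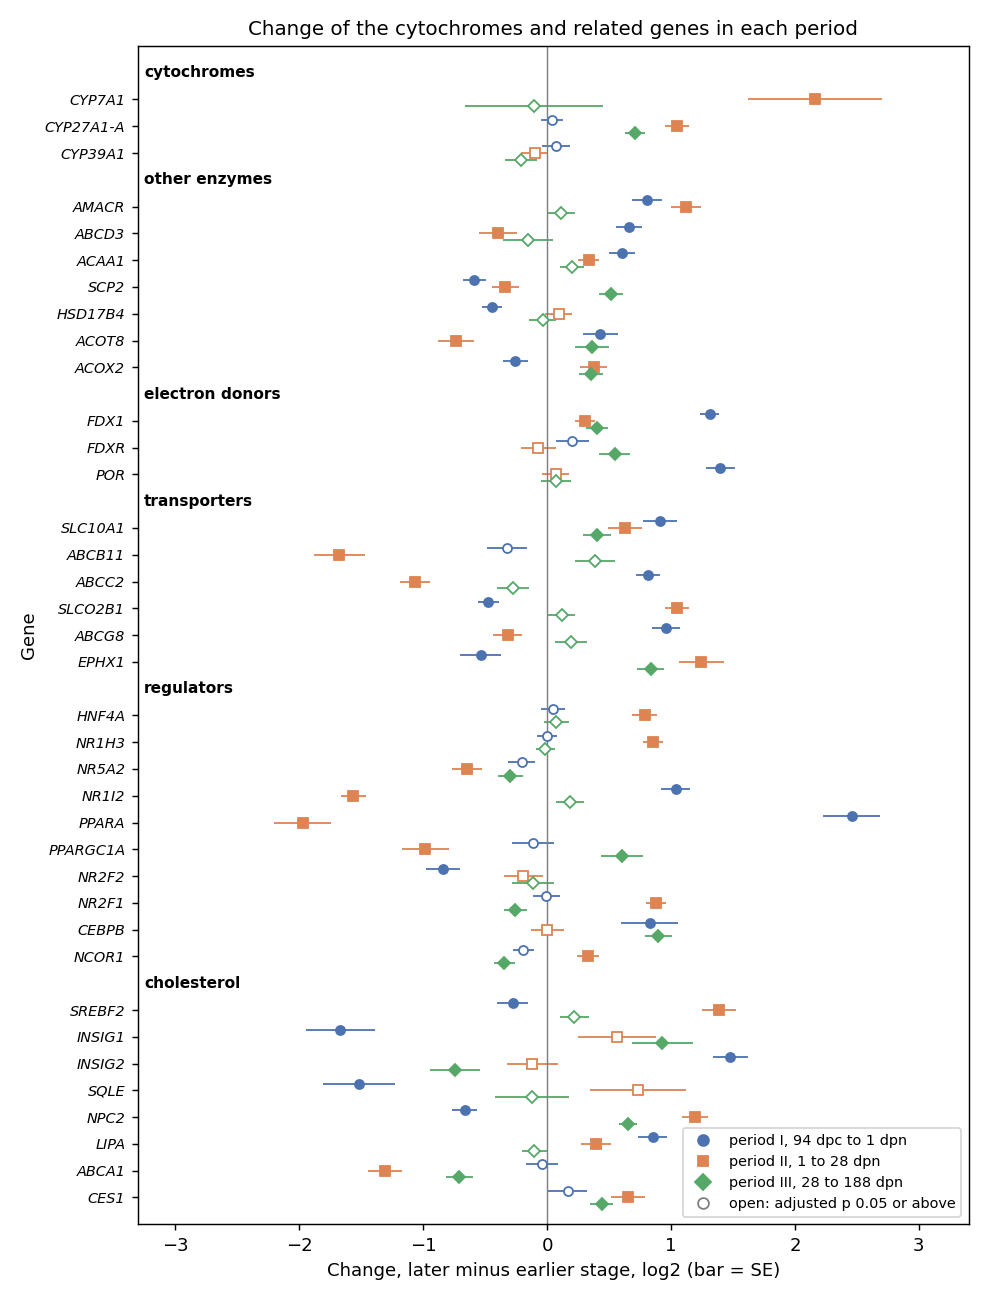
Change on the log2 scale (later minus earlier stage, bar = SE) of the cytochromes and the named genes around them in period I (circles), period II (squares) and period III (diamonds), filled where the adjusted p was below 0.05. CYP27A1-A rises by 1.05 and 0.71 in periods II and III, FDX1 and POR rise by 1.31 and 1.40 in period I, and ABCB11 changes by -1.68 in period II.

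The genes most like each cytochrome were sought among 5490 genes, as a description. By the root mean square difference of the 4 centred stage means, CYP7A1 was nearest to SLA-6 (0.13), IDS (0.14), CCL4 (0.17), SLA-DQA1 (0.17) and TYROBP (0.18). The means of CYP7A1 itself at 94 dpc (5.56) and 1 dpn (5.75) lay below the Tag background. The size of the step matched here is thus not measured. CYP27A1-A was nearest to FAM107A (0.04), DDC, INMT, KIAA1191 and RENBP (all 0.08). The means of FAM107A at 94 dpc (5.89) and 1 dpn (6.04) lay near the Tag background, so that its early course is not measured. The flat profile of CYP39A1 was nearest to SLC45A3 and AARS (both 0.01), MRPS14, TRAPPC2 and TAF12 (all 0.03).

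By the correlation over the 60 animals after subtraction of the stage means, other genes came first. They were CMBL (r = 0.58), KMO (0.51), ZADH2 (0.49), MAOA (0.48) and SLC25A3 (0.45) for CYP7A1. For CYP27A1-A they were EIF1 (r = 0.63), TST (0.60), NIT1 (0.60), PCK2 (0.59) and NDUFA1 (0.59). For CYP39A1 they were SLC2A2 (r = 0.60), RNF103 (0.60), PEX3 (0.59), ZFAND6 (0.58) and EXOC8 (0.58). None of the 3 cytochromes had a gene in common between its lists by profile and by animal, and values of 1 array share its scaling and RNA.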

How the data were processed

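Liver RNA of 60 pigs was hybridised to Affymetrix Porcine Genome arrays. The authors deposited 1 linear intensity per probe set and array (GCOS 1.1.1 in the submitters' processing notes), scaled so that the mean after trimming 2% at each end was 500.1 to 500.2 on every array. These are not the GCRMA values of the study's own tests, which used litter and sex. Intensities were raised by 16 and log2 transformed, because additive background dominates low values. Scaling to a trimmed mean leaves the array median free, and it fell with age. The file held 24123 probe sets, of which 124 controls were left out. Symbols came from the platform annotation (10069 probe sets with 1 symbol, 198 with several, 13732 with none, 6765 genes), and the gene IDs of all 6 member probe sets were found in RefSeq for Sscrofa11.1, used for names only.

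Stages, taken from the labels, were compared in pairs with limma 3.58.1 (R 4.3.3, two-sided) over the probe sets that exceeded the array median in 50% or more of the animals of either stage, and over all stages by its moderated F test. Differences between probe sets, spreads and within-stage correlations were tested with 100000 permutations (SciPy 1.17.1, two-sided), and a planned within-stage relation with NR0B2 was dropped as unmeasured. For a gene with several probe sets the one of highest mean stood for it. The fits were tested on simulated data. Members and gene lists were chosen with earlier results of these data known, so that counts over lists are descriptions.

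Named were every member, a fixed set of pathway genes, up to 4 further called genes of largest change per list and period, and the 5 genes most like each member by stage profile and by animal. CD163 and the cell type markers stand beside the results they touch. Alternatives were quantile normalization, median centring, pseudocounts of 1 and 64, no filter, a filter at 90% of animals, a pooled fit, omission of arrays, and the actin ratio as a covariate. The number of arrays limits the precision of all values. The offspring of gilts on the high protein diet were not analysed here.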

Additional observations from a re-analysis of the deposited data

How the results depend on the processing

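Of 282 member changes recomputed under the alternatives, 263 kept their side of the threshold, and so did 415 of 415 in which a single animal was left out. Of these 11 and 9, uncalled in either fit, turned their sign, the 9 being changes of CYP7A1 in period III (-0.38 to 0.12) and CYP27A1-B in period II (-0.10 to 0.01). Leaving out 1 animal, the rise of CYP7A1 in period II ran from 1.94 to 2.44 and those of CYP27A1-A from 1.01 to 1.08 in period II and from 0.68 to 0.75 in period III. Median centring, which moves all genes, gave called rises of 0.21 (CYP27A1-A) and 0.32 (CYP27A1-B) in period I, 0.59 (CYP27A1-C) in period II and 0.60 (CYP27A1-B) from 94 dpc to 28 dpn, and turned the sign of CYP39A1 to 0.46 from 94 dpc to 28 dpn, 0.31 from 94 dpc to 188 dpn and 0.067 from 1 to 188 dpn. Quantile normalization gave 0.43 for CYP27A1-C in period II, now called, and -0.15 for CYP39A1 from 1 to 188 dpn, whose call was also lost without the filter (-0.31) and without the least correlated arrays (-0.21). The actin ratio as a covariate left CYP7A1 uncalled at 3.59 in period II, 2.51 from 94 dpc to 188 dpn and 1.62 from 1 to 188 dpn, and CYP27A1-C uncalled at 0.14 in period I. It called CYP27A1-B at 1.09 in period II, with the sign turned, and at 0.79 from 94 dpc to 28 dpn, and CYP27A1-C at 1.24 in period II, and gave 0.010 for CYP39A1 from 1 to 188 dpn. The cause of these shifts was not tested. Of 270 counts over the pathway lists, markers aside, 253 stayed within 1.5 times, and the others moved under quantile normalization, median centring or the covariate. In period II the covariate lowered the rises from 3 to 1 and the falls from 3 to 0 among other enzymes, the falls from 3 to 1 among transporters, the rises from 5 to 3 and the falls from 5 to 2 among regulators, the rises from 6 to 3 among cholesterol genes, and the rises from 1 to 0 among donors. Median centring gave 1 fall among enzymes, 3 rises among donors and 2 falls among cholesterol genes in period II, 4 rises among donors and 1 fall among transporters in period I, and 1 fall among regulators in period III. Quantile normalization gave 0 rises among donors in period II, and in period III 1 fall among donors, 1 fall among regulators and 2 rises among cholesterol genes. No paired analysis was possible because the labels give the stages no shared animal or litter number. Signals at background limit CYP8B1 at all stages and CYP7A1 before 28 dpn.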
